A study of Mus musculus with 8 samples.

Results

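The genes described here encode the kainate receptor subunits and their Neto auxiliary proteins: Grik1, Grik2, Grik3, Grik4, Grik5, Neto1 and Neto2. They were chosen by symbol, and all 7 were found among the 32285 genes counted. RNA was measured by single-nucleus sequencing in the cerebral cortex of 8 mice of strain C57BL/6J at postnatal day 25, with 1 library per animal. The groups were wild type (WT) and Chd8+/- (Chd8het), each with 2 males and 2 females, and the animals formed pairs of 1 WT and 1 Chd8het animal that shared a litter and a sex. In all of them the medial cortex had been taken away and the tissue frozen before nuclei were prepared side by side and captured with 10x Genomics 3′ chemistry, version 3. In every group of sex and genotype, the first replicate was single-indexed and the second dual-indexed, so index type is the labelled batch and is balanced over genotype and sex. How the Chd8 allele was altered is not given in the sources used here.

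Kainate receptors are tetrameric glutamate-gated cation channels that act on both sides of cortical synapses and are known for slow excitatory currents and for tuning release from inhibitory terminals. Grik1, Grik2 and Grik3 encode GluK1, GluK2 and GluK3, which can form channels by themselves. Grik4 and Grik5 encode GluK4 and GluK5, which bind kainate with high affinity and work only together with one of the former. Neto1 and Neto2 encode transmembrane proteins with CUB domains that join the receptor, slow its gating and alter its trafficking.

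The subunit genes are related in sequence. The 60 coding bases below, from the ligand-binding domain, are the stretch with the most bases shared by all 5 genes. Over the whole alignment of the 5 coding sequences, 934 of 3186 columns were the same in all, and 2596 columns had no gap. Capitals mark the 43 bases that are the same in all 5 genes, and each sequence is given 5′ to 3′ on the coding strand.
Grik1: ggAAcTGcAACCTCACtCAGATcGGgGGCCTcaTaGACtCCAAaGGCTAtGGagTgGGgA
Grik2: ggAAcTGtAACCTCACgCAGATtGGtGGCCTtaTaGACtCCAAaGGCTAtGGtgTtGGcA
Grik3: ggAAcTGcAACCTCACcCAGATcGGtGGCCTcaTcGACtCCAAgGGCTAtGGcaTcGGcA
Grik4: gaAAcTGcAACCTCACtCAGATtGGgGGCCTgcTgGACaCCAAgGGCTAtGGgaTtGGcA
Grik5: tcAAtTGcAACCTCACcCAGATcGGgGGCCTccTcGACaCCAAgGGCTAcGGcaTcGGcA

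On build GRCm38 the stretch lies in exon 15 of 18 of Grik1 (chr16:87923086-87923145, minus strand), exon 15 of 17 of Grik2 (chr10:49132688-49132747, minus) and exon 14 of 16 of Grik3 (chr4:125704487-125704546, plus). In the other two genes it lies in exon 18 of 21 of Grik4 (chr9:42541831-42541890, minus) and exon 17 of 20 of Grik5 (chr7:25015314-25015373, minus). Over the whole coding sequence, Grik1, Grik2 and Grik3 were 72.1% to 72.9% identical to each other. Grik4 and Grik5 were 72.6% identical to each other and 60.7% to 65.1% identical to the first group, and Neto1 and Neto2 were 68.1% identical. Among pairs of the 5 Grik genes and the pair of Neto genes, the longest identical run between transcripts was 46 bases, between Grik2 and Grik3, and the cDNA read had 90 cycles. The genes themselves are protein coding and span chr16:87895900-88290265 (Grik1, ENSMUSG00000022935), chr10:49094833-49788766 (Grik2, ENSMUSG00000056073), chr4:125490700-125714173 (Grik3, ENSMUSG00000001985) and chr9:42518135-42944493 (Grik4, ENSMUSG00000032017). Grik5 (ENSMUSG00000003378) spans chr7:25009849-25072346 and Neto2 (ENSMUSG00000036902) chr8:85636588-85700924, and Neto1 is ENSMUSG00000050321. The intronic genes Gm26543 and Gm47018 lie within Grik2 on its strand and the antisense gene AC113599.1 lies within Neto1. Whether counting used strand is not given in the sources used here, so reads shared with them were not told apart.

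The libraries held 69.5 to 98.1 M UMIs (unique molecular identifiers; M is the prefix mega), and 77655 of 97772 barcodes were kept as single nuclei, 7450 to 10959 per library. Any 2 libraries shared 20 to 38 of their barcodes. Nuclei were clustered without the 7 genes, and clusters were named by marker genes, so that a name means resemblance to that class. Each of 19 cell types had at least 20 nuclei in every library: 4 intratelencephalic types (L2/3, L4/5, L5 and L6 IT), L5 extratelencephalic (ET), L5/6 near-projecting (NP), L6 corticothalamic (CT) and L6b neurons, Lamp5, Vip, Sst and Pvalb interneurons, oligodendrocyte precursors (OPC), committed oligodendrocyte precursors, oligodendrocytes, astrocytes, endothelial cells, fibroblasts and an unnamed cluster of few UMIs that raised 7 of 7 microglia markers. One L2/3 IT cluster of 165 nuclei was led by mitochondrial genes. Chd8 itself had 76.3 to 82.9 CPM over all nuclei of the WT libraries and 76.3 to 87.4 CPM in the Chd8het libraries (CPM are counts per M UMIs of the scaled library size). The log2 change was -0.01 (SE 0.07, adjusted p 1 by edgeR). Since the sources used here do not give the allele, whether it lowers the counted RNA is not known, and this value does not check the labels. Levels across the 19 cell types are CPM scaled over all cell types and libraries together, given as mean ± SD over 8 libraries. They are compared between cell types and not between genes. Values compared between genotypes or index types, and those of flagged libraries, are instead scaled within the cell type or all nuclei alone. Values of single clusters are CPM of the cluster's own UMIs. The same library can therefore have different values in different sections. Neighbours in a gene's order of levels were compared within animals by an exact two-sided sign-flip test. The smallest p that 8 libraries can give is 0.00781, which became 0.0298 after Benjamini-Hochberg adjustment over all 126 neighbouring pairs of the 7 genes. In 33 of the 126 pairs the adjusted p was 0.0298 and in the others it was above 0.05. The test takes the 8 animals as independent: with both animals of a litter pair flipped together the smallest p would be 0.125, and none of the 33 could pass. Where nuclei were named one by one from a marker score, which left 24.6% unnamed, 0 pairs were separated and the highest type of Grik3, Grik4, Grik5 and Neto1 became L6 CT neurons. A pair at the smallest p passes the adjustment only if many other pairs reach it too. The 0 therefore does not mean that no pair kept its order in 8 of 8 libraries.

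**Figure D1:**
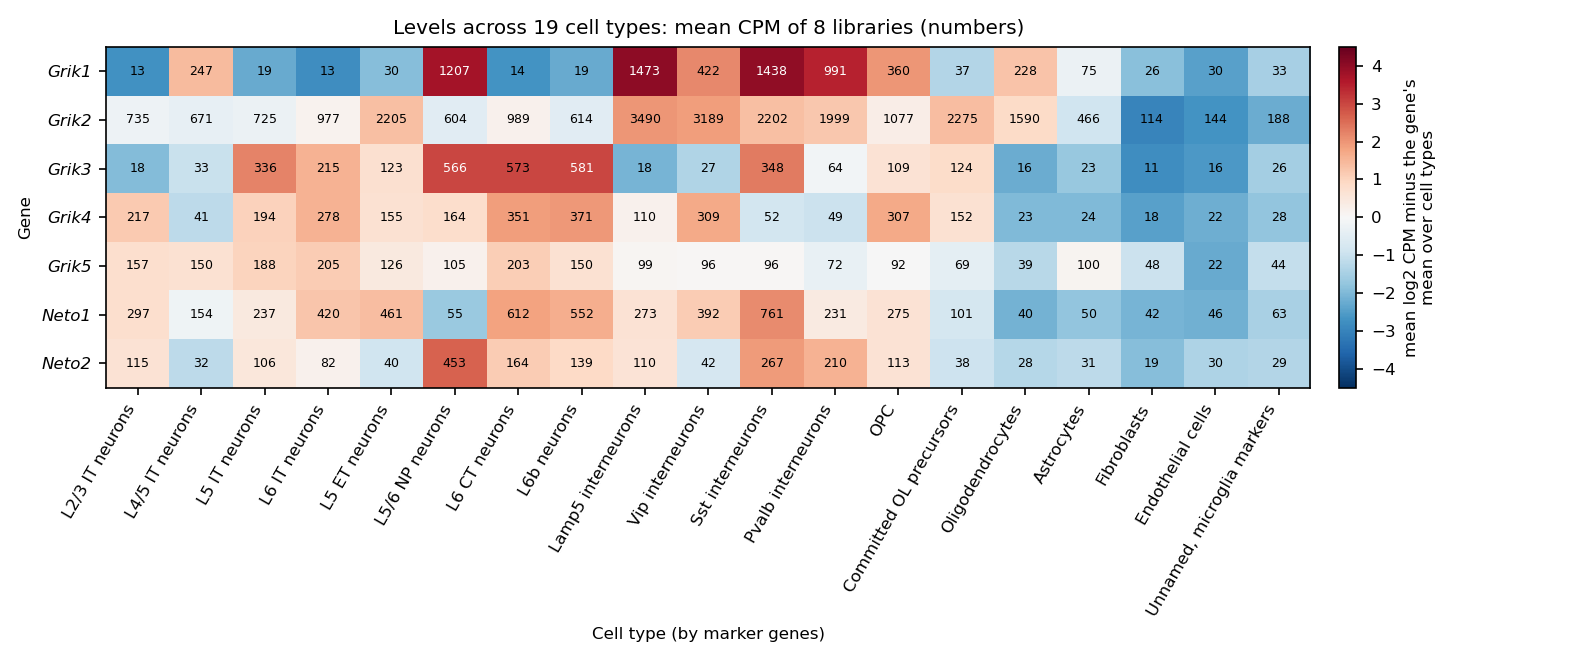
Mean CPM of 8 libraries (numbers) for 7 genes (rows) in 19 cell types (columns). Colour gives the mean log2 CPM minus the gene's own mean over cell types. Grik1 was high in interneurons and L5/6 NP neurons, Grik3 in L5/6 NP, L6 CT and L6b neurons, and Neto2 in L5/6 NP neurons.

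Grik1, whose highest and lowest types differed 115.5-fold in their means, was high in interneurons and in L5/6 NP neurons and near the bottom of its range in most other excitatory neurons. In Lamp5 interneurons it ran from 1133 through a median of 1535 to 1759 CPM (1473 ± 251, SD, n = 8), and in Sst interneurons from 1111 through 1413 to 1740 CPM (1438 ± 272). These neighbours overlapped and were not separated (adjusted p = 0.595, exact sign-flip test, Lamp5 higher in 6 of 8 libraries). L5/6 NP neurons followed with 1032 to 1427 CPM (1207 ± 134), which was not separated from Sst interneurons (adjusted p = 0.0505, exact sign-flip test) and was above Pvalb interneurons (991 ± 135) in 8 of 8 libraries. Vip interneurons held 422 ± 133 CPM, 3.58-fold below Lamp5 interneurons in 8 of 8 libraries.

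Among excitatory neurons the level of Grik1 thus fell from 1207 CPM in L5/6 NP to 247 ± 55.3 CPM in L4/5 IT neurons and to between 12.7 and 30.3 CPM in the other 6 types. The 30.3 CPM, in L5 ET neurons, rests on 106 CPM in WT female 1, and the median there was 19.8 CPM. L4/5 IT neurons were 17.9-fold above L2/3 IT and 12.99-fold above L5 IT neurons, in 8 of 8 libraries each. No pair of neighbours below committed oligodendrocyte precursors in the order of Grik1 was separated, and types that are not neighbours were not tested against each other. Outside neurons, OPC held 360 ± 59.4, oligodendrocytes 228 ± 73.2 and astrocytes 74.9 ± 16.2 CPM.

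Grik2, the gene of a channel-forming subunit common in forebrain, had a mean above 100 CPM in each of the 19 types. It was highest in Lamp5 interneurons, with 3126, 3399 and 4097 CPM as lowest, median and highest library (3490 ± 361), and in Vip interneurons, with 2682, 3278 and 3563 CPM (3189 ± 368). These overlapped (adjusted p = 0.146, exact sign-flip test), and Vip interneurons lay above the next type in the order in 8 of 8 libraries. Committed oligodendrocyte precursors (2275 ± 417), L5 ET neurons (2205 ± 111) and Sst interneurons (2202 ± 226) formed a group with no separated neighbours. Pvalb interneurons came next and were not separated from Sst interneurons either (adjusted p = 0.0838, exact sign-flip test). They were above oligodendrocytes in 8 of 8 libraries. L5 ET neurons were the highest excitatory type, 3.04-fold above L5 IT neurons, whereas the other 7 excitatory types had means of 604 to 989 CPM. The lowest levels were in astrocytes (466 ± 62.6), the cluster with microglia markers (188 ± 40.2), endothelial cells (144 ± 58.9) and fibroblasts (114 ± 36.3). Endothelial cells were not separated from the cluster with microglia markers (adjusted p = 0.0838) or from fibroblasts (adjusted p = 0.444, exact sign-flip test for both).

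Grik3, which encodes a subunit of low sensitivity to glutamate, was highest in 3 deep excitatory types, followed by Sst interneurons and L5 IT neurons. L5/6 NP neurons had 420, 553 and 794 CPM as lowest, median and highest library (566 ± 134), L6b neurons 372, 505 and 965 CPM (581 ± 211) and L6 CT neurons 388, 478 and 925 CPM (573 ± 203). The 3 types overlapped widely and no pair of neighbours among them was separated. Sst interneurons (348 ± 62.3) and L5 IT neurons (336 ± 128) came next, and L6 CT neurons were above Sst interneurons in 8 of 8 libraries. L5 ET neurons, also of deep layers, held 123 ± 59.1 CPM, 2.84-fold below L5 IT neurons and not separated from committed oligodendrocyte precursors (124 ± 32.1) or OPC (109 ± 26.2). L6 CT neurons were 30.8-fold above L2/3 IT neurons, where Grik3 was 17.5 ± 4.52 CPM. Within interneurons, Sst cells were 5.44-fold above Pvalb and 13-fold above Vip cells, and Lamp5 cells had 18.0 ± 10.3 CPM.

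Grik4, a high-affinity subunit gene, was highest in L6b neurons (278, 359 and 496 CPM as lowest, median and highest library; 371 ± 93.5) and L6 CT neurons (256, 351 and 455 CPM; 351 ± 80.1). These were not separated (adjusted p = 0.394, exact sign-flip test). Vip interneurons (309 ± 70.5), OPC (307 ± 69.6) and L6 IT neurons (278 ± 70.0) came next. Among interneurons Grik4 was 5.84-fold lower in Sst and 6.35-fold lower in Pvalb than in Vip interneurons, in 8 of 8 libraries each. It was also 5.19-fold higher in L2/3 IT (217 ± 55.2) than in L4/5 IT neurons (40.6 ± 7.78), the reverse of the order seen for Grik1.

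Grik5, the other high-affinity subunit gene, differed less between types, 9.28-fold from the highest to the lowest mean. L6 IT (205 ± 39.4), L6 CT (203 ± 39.3) and L5 IT neurons (188 ± 32.6) were highest, with ranges of 162 to 275, 177 to 297 and 156 to 262 CPM. None of these 3 was separated from its neighbour within the group. The other excitatory types had means of 105 to 157 CPM and interneurons 72.3 to 99.0 CPM, and L6 IT neurons were 2.77-fold above Pvalb interneurons. Oligodendrocytes (39.4 ± 8.72) and endothelial cells (22.0 ± 17.3) were lowest.

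Neto1 was highest in Sst interneurons in every one of the 8 libraries, with 653, 740 and 880 CPM as lowest, median and highest (761 ± 93.1). L6 CT (612 ± 82.4), L6b (552 ± 103), L5 ET (461 ± 57.3) and L6 IT neurons (420 ± 61.8) followed, each overlapping the next. Sst interneurons were separated from L6 CT neurons in 8 of 8 libraries (adjusted p = 0.0298, exact sign-flip test) and were 3.28-fold above Pvalb interneurons. L5/6 NP neurons were the exception among excitatory types, with 33.5 to 64.4 CPM (55.2 ± 9.46), 11.04-fold below L6 CT neurons.

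Neto2, by contrast, had its peak in that type. L5/6 NP neurons were highest in 8 of 8 libraries, with 393, 451 and 504 CPM (453 ± 35.4), 1.69-fold above Sst interneurons (267 ± 18.5), which were in turn above Pvalb interneurons (210 ± 20.8) in 8 of 8 libraries. Vip interneurons held 41.9 ± 5.97 CPM, 4.97-fold below Pvalb. L2/3 IT neurons (115 ± 26.5) were 3.57-fold above L4/5 IT neurons (31.8 ± 8.21).

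**Figure D2:**
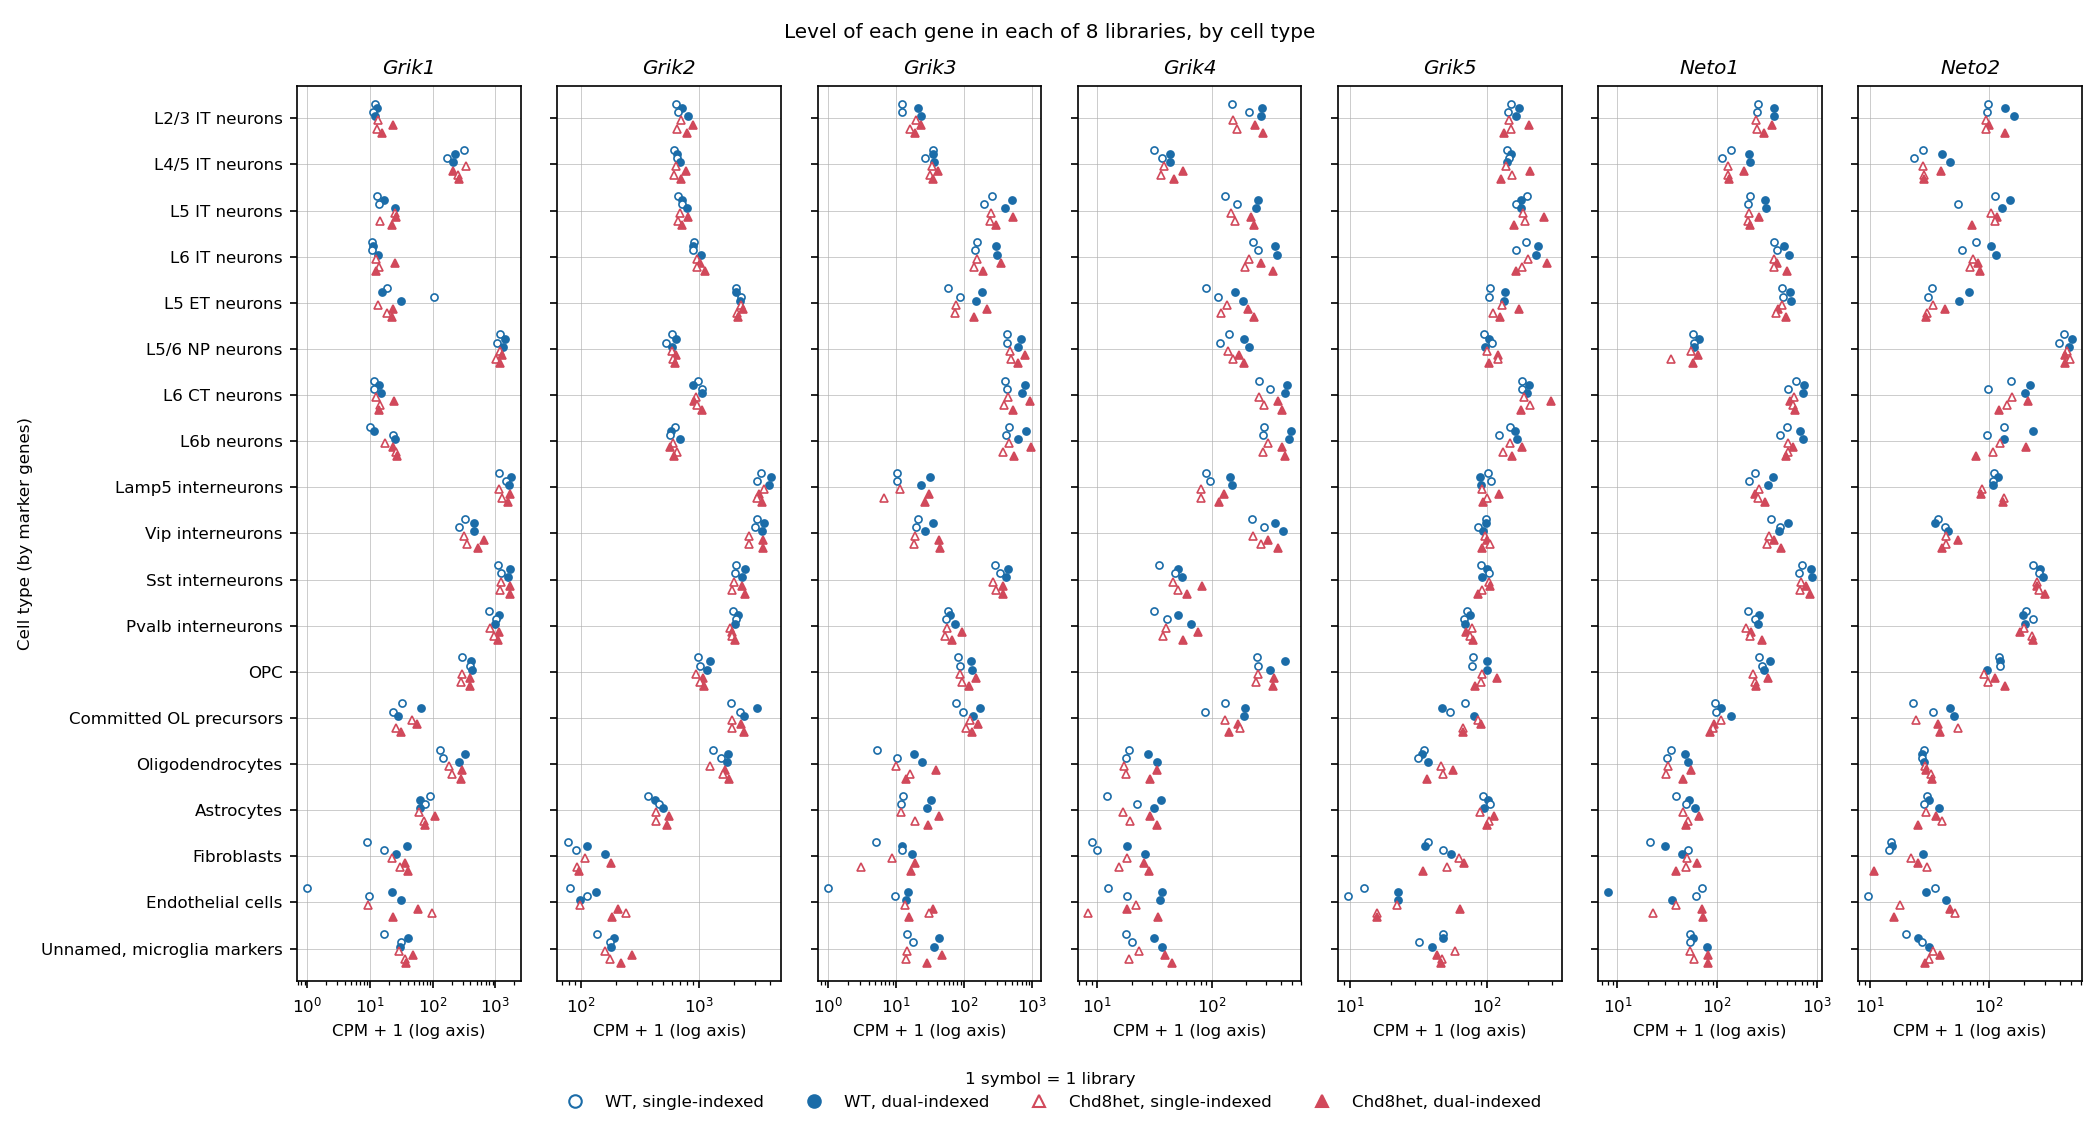
CPM + 1 (log axis) of each gene in each of 8 libraries, by cell type. Circles are WT, triangles Chd8het, open symbols single-indexed and filled symbols dual-indexed libraries. WT and Chd8het symbols intermix, while for Grik3 and Grik4 the filled symbols lie to the right of the open ones in most types, and 1 open WT circle stands apart for Grik1 in L5 ET neurons at 106 CPM.

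The share of nuclei with at least 1 UMI was compared after each nucleus had been thinned to 2000 UMIs. Thinning evens out the UMIs counted per nucleus and leaves out shallower nuclei (3242 of 3792 in the cluster with microglia markers, 294 of 440 endothelial nuclei and 19 of 1087 Lamp5 nuclei). The cluster with microglia markers and endothelial cells, taken as types that should lack these genes, gave the background (median 1437 and 1605 UMIs per nucleus before thinning, against 6223 in Lamp5 interneurons). The higher of these background shares was 8.30% for Grik1, 32.8% for Grik2, 6.11% for Grik3, 6.95% for Grik4, 9.43% for Grik5, 18.8% for Neto1 and 6.44% for Neto2. Grik1 was found in 75.5 ± 5.57% of Lamp5, 75.2 ± 4.61% of Sst and 72.0% of L5/6 NP nuclei, and unthinned in 92.6%, 92.8% and 82.2%. In 8 of 17 types its share was at or below background, including L2/3 IT (2.11%), L5 IT, L6 IT, L6 CT, L6b and L5 ET neurons and committed oligodendrocyte precursors. Its low levels there are read neither as expression nor as its absence. The background comes from types of few UMIs and need not be that of deeper nuclei, since L2/3 IT neurons lay below it. Grik2 was above background in 16 of 17 types, all but fibroblasts, and reached 97.2 ± 1.11% in Lamp5 nuclei.

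Grik3 was at or below background in 7 of 17 types, among them L2/3 IT, L4/5 IT, Lamp5 and Vip neurons. Grik4 was at or below it in 4 types (L4/5 IT neurons, oligodendrocytes, astrocytes and fibroblasts), and by share OPC (46.8 ± 6.62%) and L6b neurons (45.2 ± 6.61%) were highest, within each other's spread. Unthinned the shares were 58.6% and 85.9%, with L6b neurons the highest type. Grik5 was at or below background in 1 type, oligodendrocytes (7.71%). Neto1 was at or below it in L5/6 NP neurons, oligodendrocytes, astrocytes and fibroblasts, and Neto2 in L4/5 IT and L5 ET neurons and in 3 types outside neurons. As for Grik1, low levels in such types are read neither as expression nor as its absence. Several folds between types have such a type on the lower side. For Grik1 these include L2/3 and L5 IT neurons and committed oligodendrocyte precursors, and for Grik3 L2/3 IT and Vip neurons. For Grik4 and Neto2 they include L4/5 IT neurons, and for Neto1 L5/6 NP neurons.

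Along the oligodendrocyte lineage 6 of the 7 genes were higher in OPC than in oligodendrocytes in 8 of 8 libraries, and Grik2 was lower, as the plot of 3 lineage types shows. Grik1 went from 360 ± 59.4 CPM in OPC to 37.5 ± 15.3 CPM in committed precursors and back to 228 ± 73.2 CPM in oligodendrocytes. The committed precursors were the lowest of the 3 in 8 of 8 libraries, 9.96-fold below OPC and 6.08-fold below oligodendrocytes. Grik2 ran the other way, with 1077 ± 101, 2275 ± 417 and 1590 ± 204 CPM, and committed precursors 2.09-fold above OPC. Grik4 was 12.98-fold, Grik3 7.43-fold, Neto1 6.92-fold and Neto2 3.86-fold higher in OPC than in oligodendrocytes, again in 8 of 8 libraries each, and in oligodendrocytes all of these were at or below the background share. Grik5 went from 91.6 ± 13.4 CPM in OPC through 69.3 ± 15.3 to 39.4 ± 8.72 CPM in oligodendrocytes, where it too was below background.

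**Figure D3:**
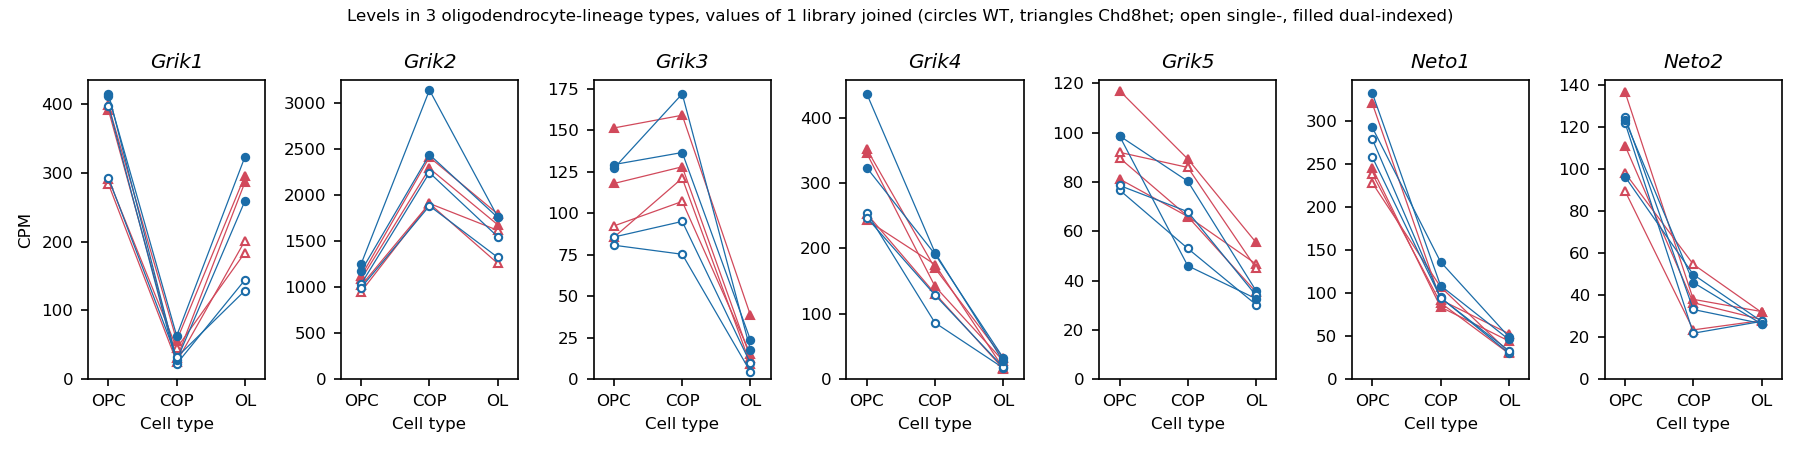
CPM of each gene in OPC, committed precursors (COP) and oligodendrocytes (OL), with the values of 1 library joined by a line. Grik1 dips in committed precursors in all 8 libraries, Grik2 peaks there, and Grik4 and Neto1 are lowest in oligodendrocytes.

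Some cell types were mixtures for these genes. Cluster values are CPM of a cluster's own UMIs and are not on the scale of the cell type levels above. The L4/5 IT class held 5 clusters. Grik1 was high in cluster 16 (467 CPM, led by Mbnl3 and Lama4) and cluster 49 (753 CPM in 7 libraries). It was low in cluster 10 (59.5 CPM) and cluster 15 (66.9 CPM), and cluster 6 lay between, at 182 to 306 CPM. Every library had 353 to 691 CPM in cluster 16 and 33.5 to 92.8 CPM in cluster 10, so these did not overlap. In Sst interneurons cluster 36 had 2850 CPM of Grik1 and cluster 17 had 849 CPM, with ranges of 2181 to 3504 and 674 to 1092 CPM. Grik3 had the reverse order in the same clusters, with 192 CPM in cluster 36 and 378 CPM in cluster 17.

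In L6 CT neurons Grik3 was 884 CPM in cluster 23 (967 nuclei; led by Col5a1 and Col12a1), 448 CPM in cluster 7 and 339 CPM in cluster 14, and cluster 23 was the highest in 8 of 8 libraries. Grik4 followed, with 419 CPM in cluster 23 and 260 CPM in cluster 14. In Vip interneurons the small cluster 52 (135 nuclei, 7 libraries; with Stac and Crh among its leading genes) had 474 CPM of Grik4 against 274 CPM in cluster 20, and 116 CPM of Neto1 against 404 CPM. These differences between clusters are descriptions, and no test was run on them.

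**Figure D4:**
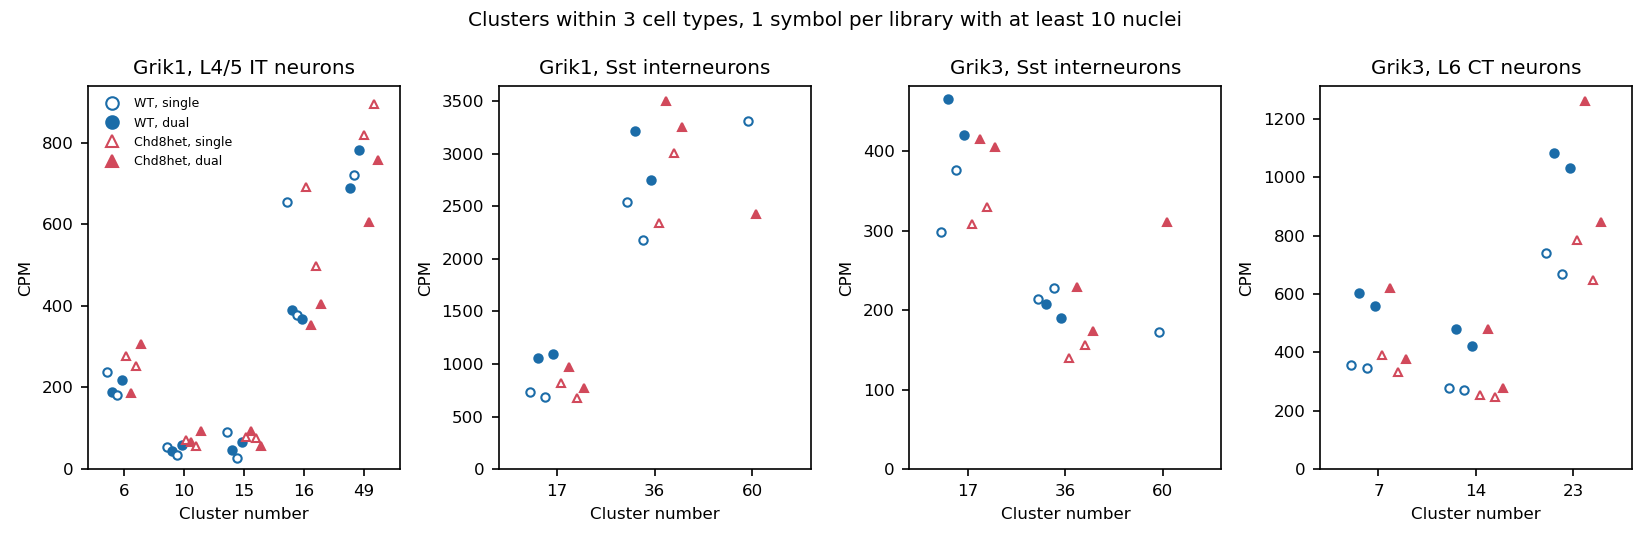
CPM of Grik1 in clusters of L4/5 IT neurons and Sst interneurons, and of Grik3 in clusters of Sst interneurons and L6 CT neurons, with 1 symbol per library of at least 10 nuclei. Circles are WT, triangles Chd8het, filled symbols dual-indexed. Grik1 in L4/5 IT cluster 16 lies above clusters 10 and 15 in all 8 libraries, and Grik3 is highest in L6 CT cluster 23.

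The other named types had too few nuclei in a library for a test. Striatal projection neurons (325 nuclei, 5 libraries with at least 10) had 2660 ± 660 CPM of Grik2, 580 ± 77.0 CPM of Neto1 and 17.05 ± 8.93 CPM of Grik1. In the Car3 IT and claustrum type (207 nuclei) Grik4 was 218 ± 49.4 and Grik1 29.0 ± 11.4 CPM, and in mural cells (381 nuclei) Grik2 was 257 ± 96.3 CPM.

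Likeness between genes across the 19 types is described by Pearson's r of mean log2 CPM, for which the cell types share libraries and depth. The highest r were between Grik4, Grik5 and Neto1 (0.72 to 0.73) and between Grik3 and Neto2 (0.70). Grik3 came close with Grik4 (0.65) and Grik5 (0.61), as did Grik2 with Neto1 (0.60). Grik1 was nearly unrelated to Neto1 (r = 0.03) and Grik3 (r = -0.01) and came nearest to Grik2 (r = 0.50). Among 13991 genes with at least 10 CPM in some type, those most like Grik1 were Alk (r = 0.85), Kcnip1 (0.84) and Gm12120 (0.84), and those most like Grik2 were Mars (0.90), 5330434G04Rik (0.90) and Inpp5b (0.86). For Grik3 they were Cdh18 (0.83), D630023F18Rik (0.82) and Gm49191 (0.81), and for Grik4 Pde4d (0.89), Pdzrn4 (0.88) and 4930588J15Rik (0.88). For Grik5 they were Cacnb1 (0.95), Sugp2 (0.95) and Cfap300 (0.94), for Neto1 Nrxn3 (0.90), Aff2 (0.90) and Ccser1 (0.87), and for Neto2 Gm15942 (0.88), Samd5 (0.87) and Gm47033 (0.86).

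None of the 7 genes passed the test between WT and Chd8het in any cell type or in all nuclei. UMI counts were summed per library and cell type and tested with edgeR's quasi-likelihood test in a model of sex and genotype, adjusted over all genes of a cell type, and log2 changes are Chd8het minus WT. Of 126 gene and cell type pairs with enough counts, 0 passed an adjusted p of 0.05 (background 0% of 201188 tests over all genes), and the smallest adjusted p was 0.999. By unadjusted p under 0.05 there were 2 of 126 (1.59%), against 2.4% of all tests, and by DESeq2 0 were called (0.00249% of all tests). With the pairs as a block in place of sex, 14 of 126 (11.1%) had an unadjusted p under 0.05, against 6.25% of all tests, and again 0 were called (0.0288% of all tests), with a smallest adjusted p of 0.161 for Grik4 in L5 ET neurons. That pair of gene and type, named after its values were seen, had 74.6 and 130.1 CPM in the WT males 1 and 2 and 93.3 and 154 CPM in the WT females 1 and 2. The Chd8het libraries of the same sex and number, taken as their partners, had 111, 168, 101 and 191 CPM in that order. The labels do not say which libraries share a litter. The value was higher in Chd8het in 4 of 4 pairs while the groups overlapped (log2 change 0.34, SE 0.08 with the block and 0.26 without it). Here and below, how often other genes had 4 of 4 pairs in the same direction was not counted. Members share libraries across types, so these counts are not independent.

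Over all nuclei together, where fewer cells of a type and less RNA per cell cannot be told apart, 0 of 7 genes were called (0% of 21215 genes called). The values below list male 1, male 2, female 1 and female 2, in that order. For Grik1 the WT libraries gave 173, 208, 168 and 185 CPM and the Chd8het ones 181, 223, 172 and 189 CPM, a log2 change of 0.06 (SE 0.10). It was higher in Chd8het in 4 of 4 pairs, yet the groups overlapped. Grik2 was 859, 949, 932 and 989 CPM in WT and 902, 1041, 864 and 985.5 CPM in Chd8het (log2 change 0.02, SE 0.08). Grik3 was 89.3, 187, 98.3 and 160.2 CPM in WT and 108, 201, 94.6 and 129 CPM in Chd8het (log2 change -0.02, SE 0.29). For both genes the higher values were those of replicate 2 in either genotype.

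Grik4 was 101, 189, 129 and 176 CPM in WT and 112, 159, 113 and 176 CPM in Chd8het (log2 change -0.09, SE 0.23). Grik5 was 119, 127, 113 and 123 CPM in WT and 122, 162, 125 and 107 CPM in Chd8het (log2 change 0.09, SE 0.11). Both genes overlapped fully between genotypes, with Chd8het male 2 the highest for Grik5. Neto1 was 235, 317, 226 and 316 CPM in WT and 239.7, 255, 225 and 263 CPM in Chd8het (log2 change -0.16, SE 0.13). Neto2 was 80.5, 108, 71.9 and 111 CPM in WT and 83.1, 85.3, 82.8 and 85.0 CPM in Chd8het (log2 change -0.14, SE 0.14). For both Neto genes the 2 dual-indexed WT libraries were above all others, and the log2 difference was -0.29 and -0.36 within dual-indexed libraries but 0.01 and 0.12 within single-indexed ones.

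In the type where each gene had its highest mean log2 CPM (the highest in 3 of 8 libraries for Grik5, 4 for Grik3, 5 for Grik1, 6 for Grik2 and Grik4 and 8 for Neto1 and Neto2, with L6b and L6 CT neurons above it in mean CPM for Grik3), the log2 changes were -0.04 (SE 0.14) for Grik1 and -0.09 (SE 0.11) for Grik2 in Lamp5 interneurons, and 0.14 (SE 0.17) for Grik3 and 0.03 (SE 0.10) for Neto2 in L5/6 NP neurons. They were -0.10 (SE 0.19) for Grik4 in L6b neurons, -0.02 (SE 0.15) for Grik5 in L6 IT neurons and -0.06 (SE 0.12) for Neto1 in Sst interneurons. Over cell types Grik5 was higher in Chd8het in 17 of 18 types tested, with a median log2 change of 0.11, Grik1 in 14 of 18, with a median of 0.19, and Neto1 was lower in 15 of 19, with a median of -0.12, while about 50.1% of all tests were higher in Chd8het. These directions come from the same 8 libraries each time and no type passed the test. The 50.1% counts single tests, and how many genes kept the same direction in nearly all types was not counted. For Grik5, Chd8het male 2 was the highest library in L2/3, L4/5, L5 and L6 IT and L6 CT neurons (248 CPM in L6 CT). In Pvalb interneurons it was not (64.3 CPM). In those IT and CT types Chd8het female 2 was below WT female 2 (148 and 165 CPM in L6 CT). The genotypes did not overlap in 1 of 126 pairs (0.794%), Neto2 in oligodendrocytes, against 1.95% of all tests, and Neto2 was below its background share there. Its levels were 28.2, 26.5, 26.7 and 28.1 CPM in WT and 28.3, 28.5, 31.6 and 32.4 CPM in Chd8het (log2 change 0.14, SE 0.16), so the gap between the groups was narrow.

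Of the pairs with an unadjusted p under 0.05, Grik5 in oligodendrocytes was 34.9, 33.0, 30.5 and 36.7 CPM in WT and 45.8, 55.7, 46.4 and 35.6 CPM in Chd8het (log2 change 0.43, SE 0.17, unadjusted p 0.0259, adjusted p 1 by edgeR). Chd8het was higher in 3 of 4 pairs, and the log2 difference was 0.50 among the single-indexed and 0.39 among the dual-indexed libraries. Grik1 in L2/3 IT neurons was 8.83, 9.64, 8.30 and 8.77 CPM in WT and 10.1, 18.1, 9.57 and 11.7 CPM in Chd8het (log2 change 0.46, SE 0.19, unadjusted p 0.0451, adjusted p 1 by edgeR). The 18.1 CPM belonged to Chd8het male 2, and without that library the change was 0.24. In both cases the share of nuclei with a UMI was at or below background, as given above.

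Grik1 in L5 ET neurons had the largest log2 change in size, -0.98 (SE 0.46, adjusted p 1 by edgeR). Scaled within this type, WT held 15.04, 11.8, 88.3 and 25.3 CPM and Chd8het 10.03, 17.8, 15 and 17.7 CPM. WT female 1 thus stood apart from the 7 other libraries. Without WT female 1 the change was -0.26. In that library 8 of the 41 nuclei of the L5 ET cluster 35 had at least 10 UMIs of Grik1, and 94.7% of the cluster's 208 Grik1 UMIs lay in its 10 richest nuclei, whereas in the other 7 libraries no nucleus of this cluster reached 10 UMIs. In the other L5 ET cluster, cluster 13, 3 nuclei of WT female 1 and 2 of WT female 2 did. This pair was chosen after its values were seen. With no filter on low counts this change passed the test (adjusted p = 0.00038, edgeR quasi-likelihood with Benjamini-Hochberg), where 0.0327% of 434702 tests over all genes did (142), and it was the only call of any of the 7 genes under the alternatives tried.

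Several of the genes differed between single- and dual-indexed libraries. Index type goes with replicate number in every group, and so with different animals and litters, which cannot be told apart from it here. With an index type term added, 54 of 126 pairs (42.9%) were called and all 54 were higher in dual-indexed libraries. At any p, 109 of 126 were higher in dual-indexed libraries, against 49.8% of all tests. The background was 15% of all tests called and 7.99% called and higher in dual-indexed. Grik4 was called in 16 of 17 types (median log2 difference 0.59, range 0.41 to 0.97) and Grik3 in 15 of 17 (median 0.77, range 0.21 to 1.58). The single- and dual-indexed libraries did not overlap in 15 of 17 types for Grik4 and in 14 of 17 for Grik3, against 17.8% of all tests. Scaled within the type, Grik3 in L6 CT neurons averaged 614 CPM in dual- and 354 CPM in single-indexed libraries (adjusted p = 0.00352 by edgeR). On the same basis Grik4 in L6b neurons averaged 425 and 287 CPM.

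In all nuclei 5 of the 7 genes were called, against 34% of all genes, with log2 differences of 0.78 for Grik3, 0.62 for Grik4, 0.31 for Neto1, 0.21 for Grik1 and 0.16 for Grik2. By type, Neto1 was called in 7 of 19, Grik1 in 6 of 18, Grik2 in 5 of 19, Neto2 in 4 of 18 and Grik5 in 1 of 18. For Grik1 the called types were the 4 interneuron types, OPC and oligodendrocytes, where it averaged 294 CPM in dual- and 166 CPM in single-indexed libraries. The makeup of a class also moved with index type: the Grik3-rich cluster 23 was 23.2% of L6 CT nuclei in dual- and 8.22% in single-indexed libraries. Inside cluster 23 the means were 1057 and 711 CPM, and the libraries did not overlap. Median UMIs per nucleus were 5989 to 7452 in dual- and 4963 to 5941 in single-indexed libraries. The part of depth and cell makeup in these differences was not tested. With the index type term in the model, genotype gave 0 calls among the 126 pairs (0.0219% of all tests), and 12 had an unadjusted p under 0.05 (5.8% of all tests did).

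**Figure D5:**
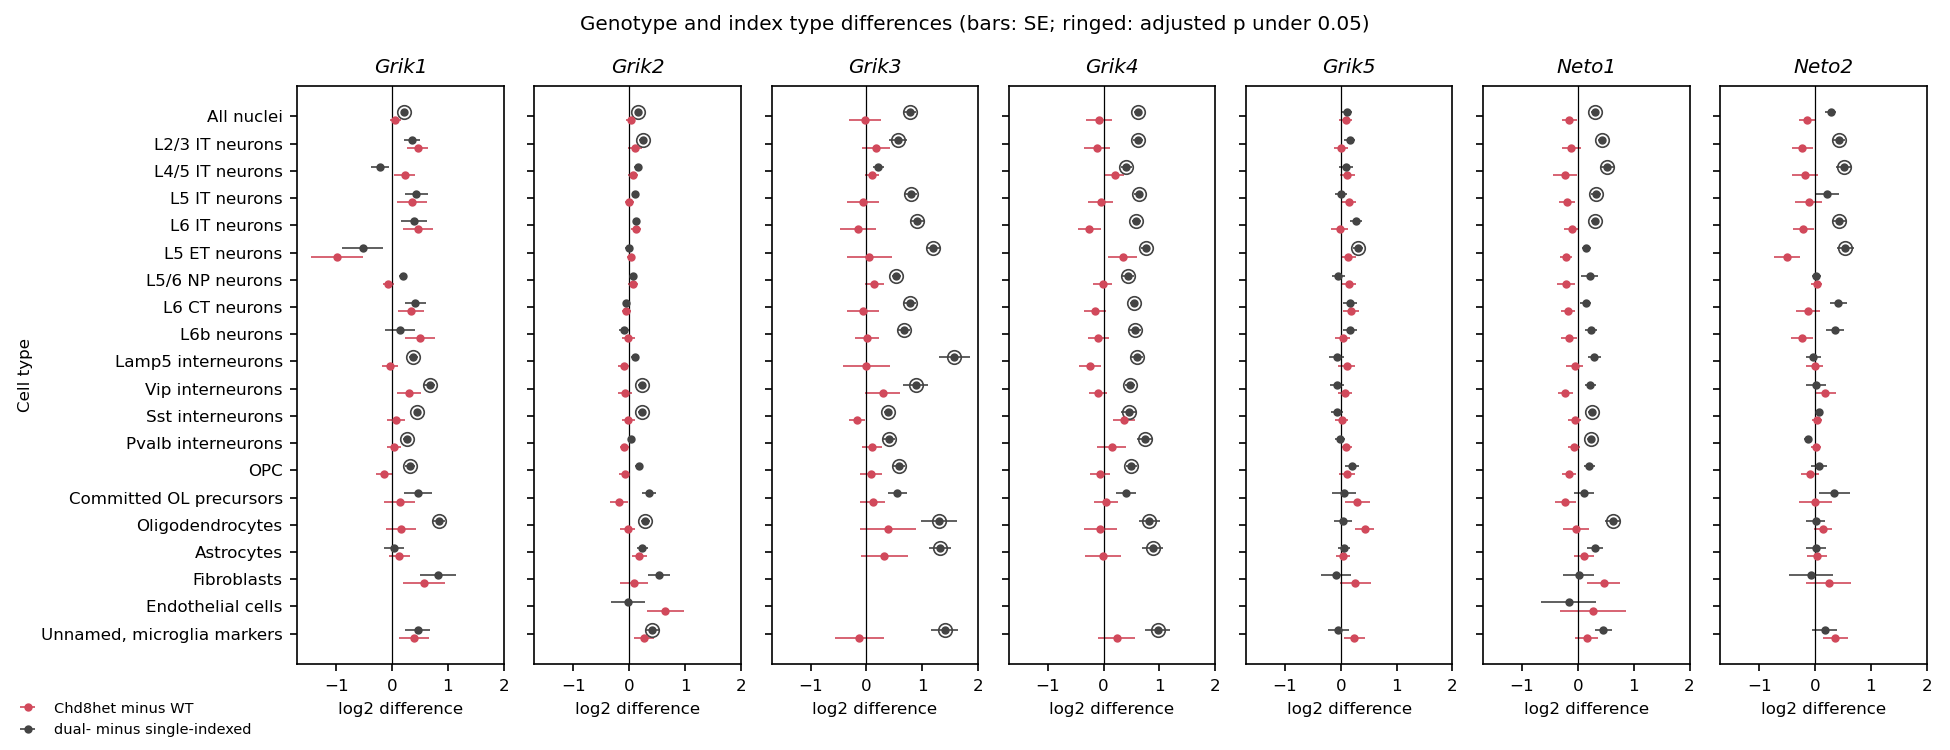
Log2 differences with SE for each gene in all nuclei and in the cell types where it could be fitted (rows), for Chd8het minus WT (red) and for dual- minus single-indexed libraries (grey). Rings mark an adjusted p under 0.05. No red point is ringed, and grey rings lie to the right of 0, most of all for Grik3 and Grik4.

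For sex, 0 of 126 pairs were called (background 0.0562% of all tests), and 5 had an unadjusted p under 0.05 (4.05% of all tests did). A test of whether the genotype difference itself differed between the sexes called 0 (0% of all tests), with 5 of 126 at an unadjusted p under 0.05 and 1.33% of all tests.

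The partners and modifiers of kainate receptors, a list of scaffold, trafficking, editing and SUMO pathway genes, gave no calls by genotype. Of 24 listed genes 23 were in the files, and over the 19 types 0 of 398 tests passed in either direction, with 4 higher and 2 lower at an unadjusted p under 0.05 (1.51%, against 0% called and 2.4% of all tests). Their median log2 change ran from -0.06 to 0.07 between types, where that of all genes ran from -0.01 to 0.02. The smallest unadjusted p in all nuclei were those of Prkca, a protein kinase C that regulates receptor trafficking (497 ± 68.0 CPM in WT and 431 ± 34.0 in Chd8het, log2 change -0.20, SE 0.10, unadjusted p 0.0737 by edgeR), and C1ql3, a secreted C1q-like synaptic protein (60.2 ± 9.24 and 65.1 ± 5.42 CPM, log2 change 0.12, SE 0.12).

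The other 13 ionotropic glutamate receptor subunit genes, for AMPA, NMDA and delta receptors, likewise gave 0 calls in 202 tests, with 4 higher and 4 lower at an unadjusted p under 0.05 (3.96%, against 2.4% of all tests). Their median log2 change ran from -0.13 to 0.20 between types. Grin2b (1848 ± 294 CPM in WT, 1570 ± 178 in Chd8het, log2 change -0.24, SE 0.13) and Grin2a (2062 ± 430 and 1727 ± 164 CPM, log2 change -0.25, SE 0.14), which encode NMDA receptor subunits, had the smallest unadjusted p in all nuclei, 0.107 and 0.112 by edgeR. Grin2b was lower in Chd8het in 4 of 4 pairs and Grin2a in 3 of 4.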

How the data were processed

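Droplet nuclei were counted by the authors as deposited UMI counts per gene and barcode, with STAR 2.7.9a, STARsolo and Cell Ranger on mm10 named per the submitters' processing notes. Barcodes with at least 500 genes and at most 5% mitochondrial UMIs were clustered together with predicted Scrublet doublets (scanpy 1.11.5, leidenalg 0.10.2). The doublets were removed after clustering, before counts were summed. A cluster took a name when at least 3 markers were raised 2-fold. Exceptions were clusters with over 30% predicted doublets, leading genes of another class, or few UMIs and no marker among the leading genes. The last kind included a cluster of 5908 kept nuclei nearest to astrocytes by markers. It was led by haemoglobin genes and had 0.146 of its libraries' median UMIs. Of kept nuclei 83.5% had a named or numbered cell type, and values for all nuclei include the rest. Clusters with over 50% of nuclei from 1 library or a tie between classes stayed unnamed and the cluster with microglia markers kept a number, rules added after the clusters were seen. The 7 genes, marker and partner lists were chosen with earlier results of these data known. Sums per library and type were tested with edgeR 4.0.16 (quasi-likelihood, TMM, sex and genotype, counts of at least 10), with Benjamini-Hochberg adjustment, and with DESeq2 1.42.0 as an alternative. The edgeR step was tested on simulated data, where it recovered 56% of genes changed 2-fold in all nuclei and 41% in L2/3 IT neurons. Of its calls there, 7 of 70 in all nuclei and 4 of 46 in L2/3 IT neurons were false. The simulated counts held no shared effect of pair or index type, so recovery in the real data may differ. Log2 levels used a prior count of 2. The TMM factors over all cell types and libraries ran from 0.773 to 2.06, so levels of unlike cell types depend in part on that scaling. Named beside the 7 genes are the 3 most correlated genes of each and the 2 genes of each list with the smallest unadjusted p. The labels speak of litter- and sex-matched pairs, and libraries of one sex and number deviated together (correlation 0.138 to 0.868 over 20 units), so the numbers were taken to pair them. Such libraries also share an index type, and those sharing only index type, of the other sex, correlated at -0.04 to 0.40, and the parts of pair and index type cannot be told apart. Alternatives covered normalization, filters, doublets, naming, the pair block, index type and leaving out each library. Car3, mural and striatal types were left out of tests.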

Additional observations from a re-analysis of the deposited data

Results flagged for a closer look

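Among 266 groups of 4 libraries (1 gene, cell type and genotype each), 10 (3.76%) had 1 library far from the other 3, where chance alone gives about 1 in 20. In 6 of them the library was Chd8het male 2 (values here are CPM scaled within the cell type). It had 19.6 CPM of Grik1 in L6 CT neurons (others 9.98 to 11.5) and 20.2 CPM in L6 IT neurons (others 9.53 to 11.1). It also had 149.7 CPM of Neto1 in L4/5 IT neurons (others 103 to 106), 208 CPM in L5 IT neurons (others 169 to 175) and 368 CPM in OPC (others 272 to 286). Its Neto2 level in L4/5 IT neurons was 31.3 CPM (others 22.0 to 22.2). WT female 2 had 876 CPM of Grik2 in L6 IT neurons (others 767 to 772) and 42.2 CPM of Neto2 in fibroblasts (others 21.6 to 22.1). WT male 1 had 347 CPM of Grik1 in OPC (others 464 to 480), and Chd8het female 2 had 108 CPM of Neto2 in L2/3 IT neurons (others 76.6 to 79.3).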

How the results depend on the processing

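Over 17 changes of the 7 genes by genotype, 282 alternative values gave 28 changes of sign and 1 past the threshold, Grik1 in L5 ET neurons with no filter on counts (-0.98). The number of all genes called in cell types was 0, and 142 with no filter, 5 with DESeq2, 58 with the replicate block, 44 with index type added, 1 with nuclei named by score, 140 with DESeq2 and the replicate block (chosen after seeing the data), and 0 to 1 without single libraries (1 without Chd8het female 2). In all nuclei it was 0, and 3 with DESeq2 and 41 with DESeq2 and the replicate block. The members called in cell types were 0, and 1 with no filter. The highest type (by mean log2 CPM) was kept by 3 of 7 genes with nuclei named by score. It also moved for Grik4 to OPC with plain CPM, for Grik3 to L6b neurons with the 7 genes left in the clustering and without Chd8het female 1, Chd8het female 2 or WT female 1, and for Grik5 to L6 CT neurons without Chd8het male 1, WT female 2, WT male 1 or WT male 2. Of 33 separated neighbours 0 were left with that naming and 0 to 0 with 7 libraries, where the smallest exact p is larger. Neither count means that no pair kept its order in every library. Grik3 in all nuclei became 0.0025 with the replicate block and 0.0042 with index type added, and Neto2 in L5/6 NP neurons -0.14 with nuclei named by score; the block changed no call of the 7 genes. Without single libraries the log2 change in all nuclei ran from -0.011 to 0.11 for Grik1, -0.034 to 0.076 for Grik2, -0.27 to 0.17 for Grik3, -0.24 to 0.12 for Grik4, -0.024 to 0.15 for Grik5, -0.25 to -0.053 for Neto1 and -0.26 to -0.012 for Neto2. In the type of highest mean log2 CPM (L5/6 NP neurons for Grik3) it ran from -0.16 to 0.072 for Grik1, -0.14 to -0.040 for Grik2, -0.022 to 0.27 for Grik3, -0.24 to 0.064 for Grik4, -0.15 to 0.12 for Grik5, -0.14 to 0.0057 for Neto1 and -0.025 to 0.078 for Neto2. The cause was not tested. In simulated data 56%, 41% and 58% of 2-fold changes were recovered in all nuclei, L2/3 IT neurons and Sst interneurons. Of the smaller ones (the square root of 2-fold) 7%, 1% and 8% were recovered, so most changes of that size would be missed. The simulated counts held no shared effect of pair or index type.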
